A study of Homo sapiens with 10 samples.

Results

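LINC symbols, LINC followed by a number, are given to long noncoding RNA genes, most of them lying between protein-coding genes, that have no name from function or from a neighbouring gene. The members described here were chosen by their level: they are the autosomal gene rows with such a symbol, without LINC00458, that averaged at least 0.5 CPM across the 8 paired-end libraries (CPM is the count scaled by the library's total, here the raw total). Of 2202 candidate rows in a table of 58051 gene rows, 146 met the rule, 702 had counts below it and 1354 had no count in any of these libraries. The levels are therefore given as a description, with no test. The rule did not use the difference between knockout and wild type, but 10 members averaged under 0.5 CPM in wild type and passed through their knockout level, and 1 averaged under it in knockout. The other 135 members were at 0.5 CPM or more in both. Just inside the rule stood LINC01341, LINC02861 and LINC00598 at 0.531, 0.529 and 0.503 CPM, and just outside it LINC00310, LINC01426 and LINC02983 at 0.495, 0.493 and 0.464 CPM.

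Long noncoding RNAs are mostly made by RNA polymerase II, spliced and polyadenylated like messenger RNAs, but carry no long open reading frame that is known to be translated. Many stay in the nucleus, are present at low levels and are switched on in few cell types, and some act on the transcription of nearby genes, on splicing, or as binding partners of proteins and microRNAs. For most LINC genes no role is established.

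HAP1 is an adherent, near-haploid human line derived from KBM-7, a chronic myeloid leukaemia line, and RBM4 encodes an RNA-binding protein that acts in alternative splicing and in the control of translation. RNA was sequenced paired-end from RBM4 knockout clone 1 (3 libraries), RBM4 knockout clone 2 (2 libraries) and wild type (3 libraries), all HAP1, in a study that looked for genes that differ with RBM4 loss. A further pair of libraries, 1 from an RBM4 knockout clone that the labels do not number and 1 from wild type, was sequenced single-end. Each knockout line is 1 clone, so a difference of a clone from wild type cannot be told apart from a difference that arose when the clone was isolated.

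RBM4 RNA stood at 22.3 to 24.5 CPM in clone 1, with 25.3 and 25.8 CPM in clone 2, against 78.7 to 79.9 CPM in wild type, and so was reduced but still counted. Total counts ran from 33192095 to 55617525 per library. Of 10 blood lineage markers, MPO, GATA1 and HBG1 had no count, PTPRC, CD33, CD34, SPI1, SPN and ITGAM averaged at most 0.147 CPM in any group, and KIT averaged 8.05 CPM in clone 1, 5.80 CPM in clone 2 and 12.7 CPM in wild type. Of 5 pluripotency genes, 4 were tested and 3 were called lower, where 8.09% of all features were. POU5F1 averaged 453 CPM in clone 1 and 409.8 CPM in clone 2, against 535 CPM in wild type (log2 fold change -0.31, adjusted p = 0.00103). LIN28B averaged 37.2 CPM in clone 1 and 48.2 CPM in clone 2, against 55.7 CPM in wild type (log2 fold change -0.40), and SALL4 was at most 0.327 CPM in any group (log2 fold change -1.43). SOX2 was at 696 CPM in clone 1 and 727.7 CPM in clone 2, against 660 CPM in wild type, and was not called (adjusted p = 0.346), while NANOG averaged at most 0.0319 CPM. The mesenchymal receptor gene PDGFRA averaged 1.59 CPM in clone 1 and 39.2 CPM in clone 2, against 0.940 CPM in wild type, so the clones also differ in genes that are not long noncoding RNAs. Of 4 mesenchymal markers tested, PDGFRA and COL1A1 (log2 fold change 0.76) were called higher and VIM (-0.20) lower, against 9.87% and 8.09% of all features. THY1 was not called, at 1.14 CPM in clone 1, 0.163 CPM in clone 2 and 0.341 CPM in wild type. VIM averaged 397 CPM in clone 1, 416 CPM in clone 2 and 466 CPM in wild type, most of the sum that follows. The summed level of 6 mesenchymal markers was 387 to 449 CPM in clone 1, with 480.3 and 483 CPM in clone 2, against 468 to 503 CPM in wild type, with COL1A2 at 0. That of 4 epithelial markers was 56.3 to 64.3 CPM in clone 1, with 68.6 and 75.4 CPM in clone 2, against 41.0 to 47.2 CPM in wild type, with CDH1 near 0. KRT18 made up most of it, at 51.46 CPM in clone 1, 56.65 CPM in clone 2 and 38.16 CPM in wild type. Of 3 epithelial markers tested, KRT18 (log2 fold change 0.50) and KRT8 (1.09) were called higher, against 9.87% of all features. EPCAM was not called (adjusted p = 0.804), at 2.30 CPM in clone 1, 0.96 CPM in clone 2 and 1.57 CPM in wild type. The part of these marker changes in the levels of the members was not tested.

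The promoter sequences below belong to members that the results turn on and that have an entry in the RefSeq promoter table (99 of the 146 members do). LINC00494 and LINC00158 were higher in both clones, LINC00365 and LINC00641 were lower in both, and LINC01018 and LINC01234 differed between the clones. Each runs 5′ to 3′ on the strand of the gene, from 250 bases before the RefSeq start to 50 after it, on GRCh38.p14. Capitals mark matches to 4 motifs on either strand, so their reverse complements are also in capitals, and overlapping matches run together. The TATA box was searched for as TATAAA. The AP-1 site was searched for in a loose form, TGANTCA, where N is any base, so a match need not be an AP-1 site. The CCAAT box was searched for by the letters of its name, and the GC box as GGGCGG. The windows are chr20:48359661-48359960 on the plus strand for LINC00494, chr21:25431652-25431951 on the minus strand for LINC00158 and chr13:30108826-30109125 on the minus strand for LINC00365. They are chr14:21206851-21207150 on the minus strand for LINC00641, chr5:6581886-6582185 on the plus strand for LINC01018 and chr12:113773634-113773933 on the minus strand for LINC01234.
LINC00494: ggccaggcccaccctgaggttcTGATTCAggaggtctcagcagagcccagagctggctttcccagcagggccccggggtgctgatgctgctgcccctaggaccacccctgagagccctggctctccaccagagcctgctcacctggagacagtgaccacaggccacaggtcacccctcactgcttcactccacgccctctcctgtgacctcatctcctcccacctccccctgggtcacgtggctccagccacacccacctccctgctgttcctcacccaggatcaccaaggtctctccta
LINC00158: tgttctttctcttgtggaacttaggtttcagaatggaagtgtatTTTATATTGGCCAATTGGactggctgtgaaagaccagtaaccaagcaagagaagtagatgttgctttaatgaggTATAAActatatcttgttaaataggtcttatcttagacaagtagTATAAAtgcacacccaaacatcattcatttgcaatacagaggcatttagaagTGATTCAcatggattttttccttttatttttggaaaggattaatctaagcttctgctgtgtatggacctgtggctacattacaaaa
LINC00365: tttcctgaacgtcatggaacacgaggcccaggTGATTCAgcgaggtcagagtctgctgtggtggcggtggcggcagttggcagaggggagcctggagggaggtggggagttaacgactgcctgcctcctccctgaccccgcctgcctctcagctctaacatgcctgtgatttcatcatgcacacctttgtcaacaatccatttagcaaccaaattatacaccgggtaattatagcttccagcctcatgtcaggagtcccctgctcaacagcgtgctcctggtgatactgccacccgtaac
LINC00641: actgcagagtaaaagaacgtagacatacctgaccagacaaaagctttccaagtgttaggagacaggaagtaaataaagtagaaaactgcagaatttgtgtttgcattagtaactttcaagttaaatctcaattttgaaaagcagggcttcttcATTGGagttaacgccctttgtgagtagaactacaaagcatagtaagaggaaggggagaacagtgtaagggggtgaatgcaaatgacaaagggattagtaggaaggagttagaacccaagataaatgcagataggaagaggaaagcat
LINC01018: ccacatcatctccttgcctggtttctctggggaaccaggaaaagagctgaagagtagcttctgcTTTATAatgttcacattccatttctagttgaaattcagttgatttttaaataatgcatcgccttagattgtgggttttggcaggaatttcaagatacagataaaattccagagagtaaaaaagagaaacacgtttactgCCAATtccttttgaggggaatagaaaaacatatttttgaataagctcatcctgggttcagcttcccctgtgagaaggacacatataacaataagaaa
LINC01234: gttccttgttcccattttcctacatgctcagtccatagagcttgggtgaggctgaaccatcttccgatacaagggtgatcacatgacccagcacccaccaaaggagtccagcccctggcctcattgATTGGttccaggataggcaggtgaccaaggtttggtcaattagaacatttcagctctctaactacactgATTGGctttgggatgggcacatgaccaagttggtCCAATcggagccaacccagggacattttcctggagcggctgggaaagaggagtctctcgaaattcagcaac
The LINC00158 window held 3 TATA matches, 3 CCAAT matches, 1 AP-1 match and no CpG, whereas that of LINC00365 held 1 AP-1 match and 10 CpG. The windows of LINC00494, LINC00158 and LINC00365 each held an AP-1 match, a motif present in 7.71% of all 35116 promoters of 300 bases in the table. The starts of LINC00158, LINC00365, LINC00641, LINC01018 and LINC01234 in RefSeq and in GENCODE 29 were the same base, and that of LINC00494 lay 39 bases from the GENCODE start.

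Of the 146 members, GENCODE 29 classes 108 as lincRNA, 16 as processed transcript, 9 as transcribed unprocessed pseudogene and 8 as antisense. LINC02693 is a protein-coding gene named C17orf51 in that release. Chromosome 1 held 26 members, chromosome 2 held 14 and chromosome 7 held 13. The median member averaged 1.58 CPM, with 49 members below 1 CPM and 19 at 10 CPM or more, and every member had counts in all 8 libraries. Members varied more between replicates when they were low. The median coefficient of variation among the wild type libraries was 3.85% for members of 10 CPM or more and 21.3% for members below 1 CPM.

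Together the members took 0.0674%, 0.0699% and 0.0741% of all counts in the clone 1 libraries and 0.0726% and 0.0729% in the clone 2 libraries, against 0.0644%, 0.0649% and 0.0636% in the wild type libraries. Each knockout library was above each wild type library. The 8 members of the highest mean CPM held 33.55% of the summed level. They were LINC01089, LINC02693, LINC00641, LINC01224, LINC02210, LINC02604, LINC01128 and LINC01963. Per kilobase of exon, which allows genes of different length to be set side by side, LINC01089 averaged 10.2 CPM per kilobase, LINC01224 8.59, LINC01963 7.10, LINC02604 6.82 and LINC00641 5.56. In bulk RNA, fewer cells that express a gene and less of its RNA per cell cannot be told apart.

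The comparison of knockout with wild type asks which of these RNAs changed when RBM4 was lost. Averaged over both clones and set against wild type, 26 of 146 members were called higher and 2 lower. A gene was called at an adjusted p below 0.05 in edgeR's quasi-likelihood test, fitted and adjusted over all 20747 features. Over all features, 9.87% were called higher and 8.09% lower (18.0% in either direction), against 17.8% and 1.37% of the members. Among the 135 members at 0.5 CPM or more in both knockout and wild type, 22 were called higher and 2 lower. The number called in either direction, 28, was 16 without wild type replicate 1 and 17 without wild type replicate 2. Over all features that number fell as well, from 3725 to 1847 and 2217. Column names carry sample numbers, of which 11 to 13 hold knockout libraries only. With a term for blocks of sample numbers, 17 members were called higher and 6 lower. Over all features the block term also moved calls to the lower side, from 1678 to 2091, with 1995 called higher. The libraries numbered 1 to 5, which leave 1 library of each clone, gave more lower calls as well, both in the members and over all features. The median log2 fold change was 0.16 over the members, 0.00 over all features tested, and 0.08 over the other 808 GENCODE lincRNA genes tested. The log2 fold change was above 0 for 109 of 146 members (74.7%, against 50.4% of all features). Because 10 members met the rule only through their knockout level, these counts describe the members and are not a test of them.

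Clone 1 against wild type gave 22 members higher and 2 lower, where 9.37% and 6.64% of all features were called higher and lower (16.0% in either direction). Clone 2 against wild type gave 14 higher and 2 lower, where the shares over all features were 6.18% and 4.59% (10.8% in either direction). Both clones are set against the same 3 wild type libraries. The 24 members called in clone 1 became 13 and 14 without wild type replicate 1 and 2. Without clone 2 replicate 1, which leaves 1 clone 2 library, fewer than 16 members were called in clone 2, and the number over all features fell too. For clone 1, the number called over all features fell as well, from 3321 to 1605 and 1928 without wild type replicate 1 and 2. Called higher in both clones were 13 members (4.42% of all features met this), and called lower in both were 2 (3.09% of all features). In 31 members every knockout library stood above every wild type library, and in 7 every one stood below, where 13.5% and 11.8% of all features did so. Among the 135 members at 0.5 CPM or more in both knockout and wild type, 18 were called higher in clone 1, 11 in clone 2 and 10 in both. In 27 of the 135 every knockout library stood above every wild type library. The counts of this paragraph describe the members and are not a test of them. Whether the libraries of a group stem from separate cultures is not stated in the labels, so the p-values reflect how much these libraries vary, which may be technical.

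**Figure D1:**
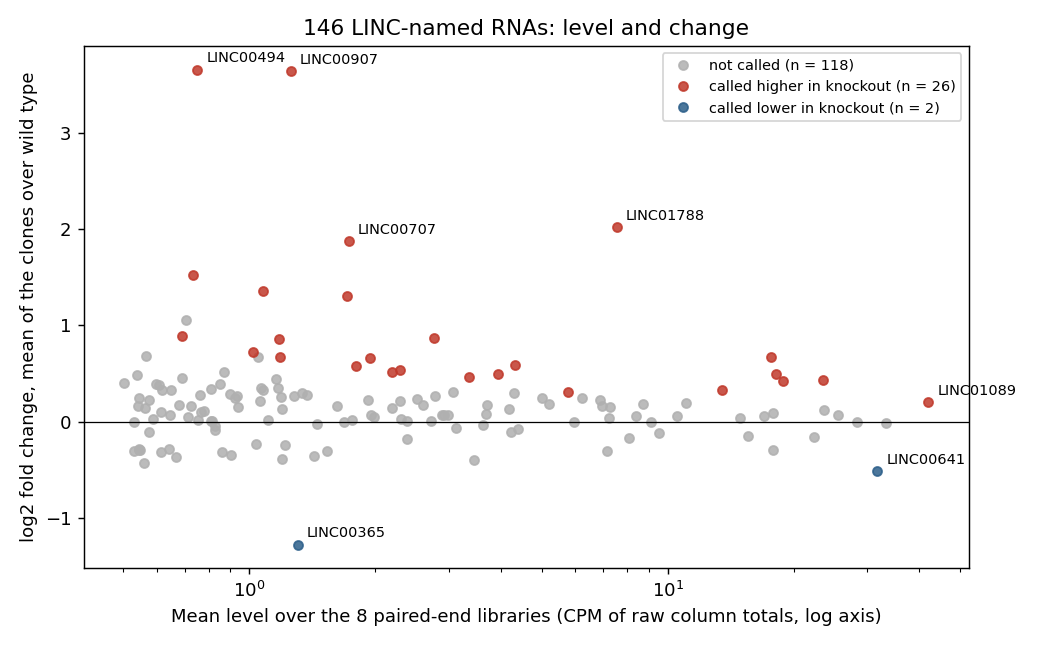
Each point is 1 of the 146 members. The x axis is its mean level over the 8 paired-end libraries (CPM of raw totals, log axis) and the y axis its log2 fold change, mean of the clones over wild type. Red marks the 26 members called higher and blue the 2 called lower. Most of the large changes lie on the left, at low levels, but LINC01788, with a log2 fold change of 2.02, lies at 7.57 CPM. The members above 10 CPM changed by less than 1 on the log2 scale.

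Of the 26 members called higher, 7 changed at least 2-fold, 8 changed 1.5-fold to 2-fold and 11 changed less. The largest folds belonged to RNAs that were nearly absent from wild type. LINC00494 (ENSG00000235621, chromosome 20, 48359950 to 48370629, plus strand), whose promoter is printed above, stood at 1.03, 1.32 and 1.51 CPM in clone 1, with 0.842 and 1.02 CPM in clone 2, against 0.0475, 0.114 and 0.0970 CPM in wild type. The groups did not overlap, but the wild type level rests on 10 counts over its 3 libraries. The ratio of counts was 15.4 in clone 1 (exact 95% interval 8.18 to 32.7) and 11.1 in clone 2 (5.74 to 24.01), intervals that cover counting error only. LINC00494 is one of the 10 members that met the 0.5 CPM rule only through their knockout level, as are LINC00907, LINC00649 and LINC01356 below, so no test is drawn on for these 4.

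LINC00907 (ENSG00000267586, chromosome 18, 42159283 to 42691422, plus strand) is a long gene with up to 10 exons in a transcript. It stood at 1.87, 2.00 and 1.85 CPM in clone 1, with 1.44 and 2.40 CPM in clone 2, against 0.214, 0.143 and 0.0970 CPM in wild type. Every knockout library was above every wild type library, and the clones reached the same mean, 1.91 CPM in clone 1 and 1.92 CPM in clone 2. With 18 wild type counts in all, the ratio of counts was 12.6 in clone 1 (exact 95% interval 7.84 to 21.7) and 12.9 in clone 2 (7.90 to 22.2).

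LINC01788 (ENSG00000229051, chromosome 1, 70706453 to 70786468, plus strand) was present in wild type and rose in both clones, further in clone 2. It stood at 6.47, 6.23 and 6.12 CPM in clone 1, with 16.5 and 17.4 CPM in clone 2, against 3.21, 2.37 and 2.01 CPM in wild type. No groups overlapped, and the log2 fold change was 1.304 in clone 1 (adjusted p = 4.75e-05) and 2.74 in clone 2 (adjusted p = 4.58e-08). In the mean of the clones it was 4.06-fold higher (log2 fold change 2.02, SE 0.13, adjusted p = 2.67e-07).

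LINC00707 (ENSG00000238266, chromosome 10, 6779549 to 6879450, plus strand), an RNA studied mostly in tumours, rose further in clone 1. Its level was 2.81, 3.39 and 2.99 CPM in clone 1, with 1.21 and 1.68 CPM in clone 2, against 0.332, 0.542 and 0.849 CPM in wild type. The groups did not overlap. The log2 fold change in the mean of the clones was 1.88 (SE 0.25, adjusted p = 0.000205), with 2.42 in clone 1 (adjusted p = 3.95e-05) and 1.34 in clone 2 (adjusted p = 0.0115). Without clone 2 replicate 2, the call in clone 2 was lost (log2 fold change 1.06, adjusted p = 0.114).

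LINC00158 (ENSG00000185433, chromosome 21, 25385820 to 25431701, minus strand) has the TATA-rich promoter window printed above. It stood at 1.42, 1.57 and 1.46 CPM in clone 1, with 1.29 and 1.25 CPM in clone 2, against 0.499, 0.656 and 0.461 CPM in wild type. The replicates of each group lay close together and the groups did not overlap (log2 fold change 1.36, SE 0.20, adjusted p = 0.000437). The other RNA of chromosome 21 in this size range, LINC00649 (ENSG00000237945, 33915534 to 33977691, plus strand, class antisense), stood at 0.574, 0.993 and 1.11 CPM in clone 1, with 1.26 and 0.914 CPM in clone 2, against 0.309, 0.143 and 0.558 CPM in wild type. The lowest clone 1 library was barely above the highest wild type library. Its fitted log2 fold change in clone 1 was 1.39, against 0.74 with the libraries numbered 1 to 5. Exons of LINC00649 overlap those of ATP5PO on the opposite strand by 300 bases, and with the strand setting of the counter unknown, reads of the overlap cannot be assigned.

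LINC01814 (ENSG00000236008, chromosome 2, 8506446 to 8592903, minus strand) stood at 1.90, 3.01 and 2.10 CPM in clone 1, with 2.10 and 1.89 CPM in clone 2, against 0.499, 1.23 and 0.946 CPM in wild type. The groups did not overlap, although the wild type libraries spread widely (log2 fold change 1.31, SE 0.26, adjusted p = 0.00412). Its call in clone 2 alone (log2 fold change 1.18, adjusted p = 0.0270) was lost without wild type replicate 1 or 3 or either clone 2 library, at adjusted p from 0.0705 to 0.158. With the libraries numbered 1 to 5, its call in clone 1 was lost (log2 fold change 1.12, adjusted p = 0.0723). The nearest protein-coding start is that of ID2, which encodes an inhibitor of basic helix-loop-helix transcription factors and lies 85942 bases away in divergent orientation. ID2 averaged 26.5 CPM in clone 1 and 24.7 CPM in clone 2, against 18.5 CPM in wild type (log2 fold change 0.47, adjusted p = 0.000797).

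**Figure D2:**
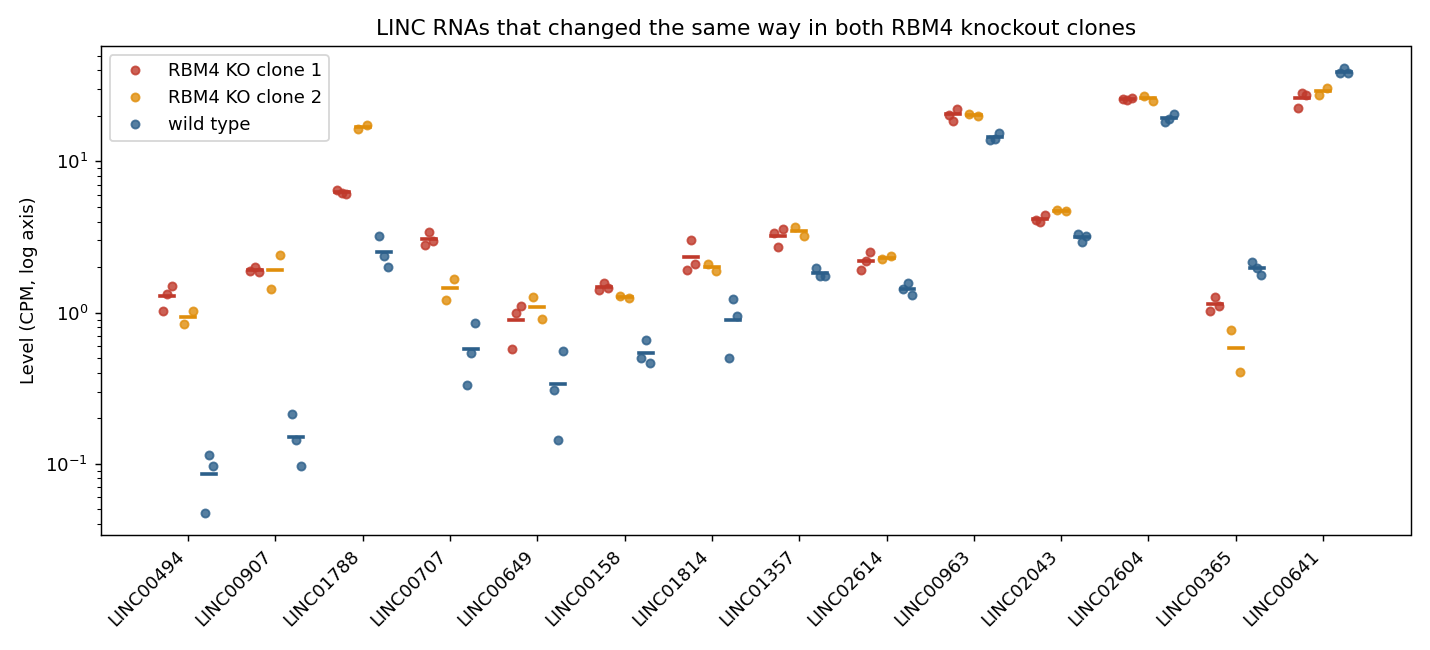
Levels (CPM, log axis) of 12 members that were called higher and the 2 that were called lower in both clones, a point for each library and a bar for the group mean. Clone 1 is red, clone 2 orange and wild type blue. For LINC00494 and LINC00907 the wild type points lie at or below 0.214 CPM, and for LINC00963 and LINC02604 every group lies between 13.8 and 27.2 CPM. LINC00174, which was also called higher in both clones, is not drawn.

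Smaller increases were seen in RNAs at higher levels, where replicates lay closer together. LINC02604 (ENSG00000273142, chromosome 7, 66902857 to 66906297, plus strand), a gene of a single exon, stood at 26.0, 25.6 and 26.3 CPM in clone 1, with 27.2 and 25.03 CPM in clone 2, against 18.1, 19.1 and 20.6 CPM in wild type. The groups did not overlap, and the mean rise was 1.35-fold (log2 fold change 0.43, SE 0.06, adjusted p = 0.00037). LINC00963 (ENSG00000204054, chromosome 9, 129483451 to 129513686, plus strand), an RNA studied in prostate cancer, stood at 20.4, 18.6 and 22.4 CPM in clone 1, with 20.6 and 20.1 CPM in clone 2, against 13.8, 14.0 and 15.5 CPM in wild type. Its groups did not overlap either, and the rise was 1.41-fold (log2 fold change 0.50, SE 0.08, adjusted p = 0.000522).

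LINC01357 (ENSG00000224167, chromosome 1, 112850028 to 112877871, plus strand) averaged 3.22 ± 0.44 CPM in clone 1 (SD, n = 3) and 3.45 CPM in clone 2 (n = 2), against 1.82 ± 0.13 CPM in wild type (SD, n = 3), with no overlap (log2 fold change 0.86, SE 0.14, adjusted p = 0.00101). LINC01356 (ENSG00000215866, chromosome 1, 112820170 to 112850643, minus strand) lies head to head with it and averaged 0.869 CPM in clone 1 and 0.793 CPM in clone 2, against 0.442 CPM in wild type. The 2 genes share 400 exonic bases on opposite strands, which is 68.1% of the exonic length of LINC01357, so without the strand setting their counts are not separate measurements. LINC01356 was named after its values were seen. The nearest protein-coding start to both is that of SLC16A1, the lactate transporter MCT1, which was lower (187 CPM in clone 1 and 184 CPM in clone 2, against 223 CPM in wild type; log2 fold change -0.27, adjusted p = 0.00259).

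LINC02614 (ENSG00000241288, chromosome 3, 125827238 to 125916384, minus strand) averaged 2.21 ± 0.31 CPM in clone 1 (SD, n = 3) and 2.31 CPM in clone 2 (n = 2), against 1.43 ± 0.13 CPM in wild type (SD, n = 3). The knockout libraries lay above the wild type libraries. The level rose by 0.66 on the log2 scale (SE 0.15, adjusted p = 0.00984), and without wild type replicate 1 or 3 it was not called (adjusted p = 0.0513 and 0.0523). The call of LINC02614 in clone 2 alone (adjusted p = 0.0298) was lost without any 1 of the wild type or clone 2 libraries, and that in clone 1 alone (adjusted p = 0.0226) on leaving out replicate 1 or 3 of wild type or replicate 2 or 3 of clone 1. With the libraries numbered 1 to 5, LINC02614 was not called in the mean (log2 fold change 0.53, adjusted p = 0.0640). LINC02043 (ENSG00000232233, chromosome 3, 186810880 to 186825521, minus strand) averaged 4.18 ± 0.24 CPM in clone 1 (SD, n = 3) and 4.72 CPM in clone 2 (n = 2), against 3.15 ± 0.19 CPM in wild type (SD, n = 3). The rise of LINC02043 was 1.41-fold (log2 fold change 0.49, SE 0.11, adjusted p = 0.00681), but its call in clone 1 alone (adjusted p = 0.0357) was lost without any 1 library (adjusted p 0.0518 to 0.144). Its call in clone 2 alone was lost without wild type replicate 2 (adjusted p = 0.0521), clone 2 replicate 1 (0.0819) or clone 2 replicate 2 (0.0653). Of the 75-base windows of LINC02043 transcripts, 18.5% also occur in transcripts of other genes, so part of its counts may be shared.

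LINC00174 (ENSG00000179406, chromosome 7, 66376044 to 66493566, minus strand) also rose in both clones and was named after its values were seen, to complete the 13. It stood at 20.6, 20.9 and 22.6 CPM in clone 1, with 21.8 and 18.7 CPM in clone 2, against 15.2, 15.7 and 15.6 CPM in wild type (log2 fold change 0.42, SE 0.07, adjusted p = 0.00106). The groups did not overlap. Its call in clone 2 alone (adjusted p = 0.0104) was lost without clone 2 replicate 1 (log2 fold change 0.27, adjusted p = 0.196).

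The remaining members called higher in the mean of the clones changed by 0.20 to 0.86 on the log2 scale. In all, 8 of the 26 were called in clone 1 but not in clone 2. A further 4 were called in neither clone alone. At the low end of that range stood LINC01089 (ENSG00000212694, chromosome 12, 121795267 to 121803906, minus strand), known as LIMT, an RNA reported to restrain metastasis in breast cancer. It stood at 43.4, 46.0 and 47.7 CPM in clone 1, with 41.7 and 42.7 CPM in clone 2, against 37.1, 38.0 and 39.5 CPM in wild type. The groups did not overlap, yet the rise was only 1.15-fold (log2 fold change 0.20, SE 0.05, adjusted p = 0.0157), and the call was lost without wild type replicate 1, wild type replicate 2 or clone 2 replicate 2 (adjusted p = 0.116, 0.0904 and 0.0594), and with the libraries numbered 1 to 5 (0.0580). Of the exonic bases of LINC01089, 41.7% lie in exons of the protein-coding gene RHOF on the same strand, so their counts are uncertain.

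Only LINC00365 and LINC00641 were called lower in the mean, and both were called lower in each clone. LINC00365 (ENSG00000224511, chromosome 13, 30103178 to 30108875, minus strand) stood at 1.03, 1.26 and 1.11 CPM in clone 1, with 0.767 and 0.404 CPM in clone 2, against 2.16, 1.97 and 1.77 CPM in wild type. No groups overlapped, and clone 2 was the lowest. The level was 2.42-fold lower in the mean (log2 fold change -1.27, SE 0.20, adjusted p = 0.000668), with -0.78 in clone 1 (adjusted p = 0.0247) and -1.77 in clone 2 (adjusted p = 0.000732). Clone 2 and clone 1 were not called different from each other (log2 difference -0.98, clone 2 over clone 1, SE 0.28, adjusted p = 0.127). In clone 1 alone the call was lost without wild type replicate 1, wild type replicate 2 or clone 1 replicate 3 (adjusted p = 0.105, 0.0667 and 0.0596), and with a term for blocks of sample numbers (0.131).

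LINC00641 (ENSG00000258441, chromosome 14, 21200079 to 21206900, minus strand) is among the RNAs of high level here. It stood at 22.7, 28.2 and 27.4 CPM in clone 1, with 27.7 and 30.4 CPM in clone 2, against 38.3, 41.4 and 38.3 CPM in wild type. The clones overlapped each other and lay below wild type, 1.43-fold in the mean (log2 fold change -0.51, SE 0.07, adjusted p = 0.00026). None of the 75-base windows of LINC00641 or LINC00365 transcripts occurs in another gene. The call of LINC00641 in clone 2 alone (adjusted p = 0.00619) was lost without clone 2 replicate 1 (adjusted p = 0.0774).

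Clone 2 was also set against clone 1, which asks which RNAs differ between lines that share the RBM4 knockout. Of the 146 members, 3 were called higher in clone 2 and 2 lower, where 1.1% and 0.993% of all features were (2.09% in either direction). LINC01018 (ENSG00000250056, chromosome 5, 6582136 to 6588499, plus strand), known as a liver-enriched RNA, stood at 1.44 and 1.32 CPM in clone 2, against 0.453, 0.523 and 0.395 CPM in clone 1. The wild type libraries, at 0.997, 0.771 and 0.606 CPM, lay between the clones and overlapped neither. The log2 difference was 1.57, clone 2 over clone 1 (SE 0.27, adjusted p = 0.00575), while the mean of the clones was close to wild type (log2 fold change 0.01, SE 0.25, adjusted p = 0.987).

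LINC01234 (ENSG00000249550, chromosome 12, 113679459 to 113773683, minus strand), an RNA studied in gastric and other cancers, stood at 2.05 and 1.59 CPM in clone 2, against 4.11, 3.88 and 4.05 CPM in clone 1. Wild type again lay between, at 2.61, 2.23 and 2.84 CPM. The log2 difference of clone 2 from clone 1 was -1.14 (SE 0.17, adjusted p = 0.0017). Against wild type, LINC01234 was called higher in clone 1 (log2 fold change 0.64, adjusted p = 0.00900, and 0.0517 without wild type replicate 2) and was not called in clone 2 (-0.50, adjusted p = 0.0898).

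LINC01694 (ENSG00000233922, chromosome 21, 45593654 to 45603056, plus strand) stood at 28.3 and 27.3 CPM in clone 2, against 13.8, 16.1 and 16.5 CPM in clone 1, and the wild type libraries were at 12.3, 14.1 and 12.7 CPM. Clone 1 and wild type overlapped and clone 2 stood apart. The log2 difference between the clones was 0.84 (SE 0.09, adjusted p = 8.73e-05). It was the only member called in the mean of the clones whose knockout and wild type libraries overlapped, with a log2 fold change of 0.68 (adjusted p = 5.16e-05). It was called in clone 2 (log2 fold change 1.10, adjusted p = 3.37e-06), while the log2 fold change in clone 1 was 0.25 (adjusted p = 0.0599).

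LINC01788 and LINC00707, already described, completed the 5. LINC01788 was higher in clone 2 than in clone 1 (log2 difference 1.44, SE 0.14, adjusted p = 2.65e-05). LINC00707 was lower in clone 2 than in clone 1 (log2 difference -1.08, SE 0.26, adjusted p = 0.0458), a call that was lost without wild type replicate 2, clone 1 replicate 2, clone 1 replicate 3 or either clone 2 library (adjusted p 0.0683 to 0.389) and with the replicate number as a block (adjusted p = 0.0643). With the libraries numbered 1 to 5, which hold 1 library of each clone, LINC01018, LINC01234 and LINC00707 were not called between the clones. Their log2 differences there were 1.65, -1.01 and -1.22.

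**Figure D3:**
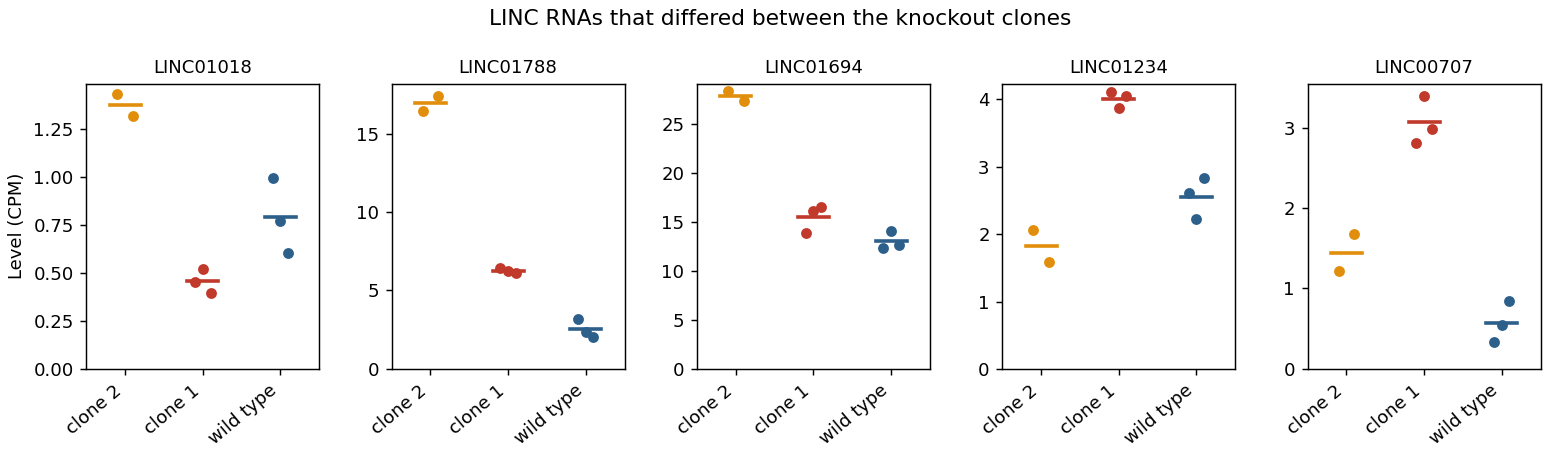
Levels (CPM, linear axes from 0) of the 5 members called between the clones, with clone 2 first, then clone 1, then wild type. Points are libraries and bars are group means. Wild type lies between the clones for LINC01018 and LINC01234, and below both clones for LINC01788 and LINC00707.

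Of the 8 members of highest CPM, 5 were not called. LINC02693 averaged 33.1 ± 1.4 CPM in clone 1 (SD, n = 3) and 33.5 CPM in clone 2 (n = 2), against 33.5 ± 1.2 CPM in wild type (SD, n = 3). The difference on the log2 scale was -0.01 (SE 0.05, adjusted p = 0.947). LINC01224 was at 27.8 ± 0.78 CPM in clone 1 and 28.9 CPM in clone 2, against 28.5 ± 1.4 CPM in wild type (log2 fold change -0.01, SE 0.05, adjusted p = 0.957). LINC02210, LINC01128 and LINC01963 had log2 fold changes of 0.07, 0.12 and -0.15 (adjusted p = 0.413, 0.146 and 0.126). LINC01963 was called lower with a term for blocks of sample numbers (log2 fold change -0.24, adjusted p = 0.0315), with the libraries numbered 1 to 5 (-0.24, adjusted p = 0.0154) and without clone 2 replicate 2 (-0.23, adjusted p = 0.0346). Standard errors of these 5 were 0.05 to 0.07 on the log2 scale.

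Among 18 LINC RNAs with a published role, 4 were members (LINC00461, LINC00467, LINC00662 and LINC01128). At an unadjusted p below 0.05 stood LINC00461 (0.00986) and LINC01128 (0.0435). LINC00461, a neural RNA whose gene holds the microRNA gene MIR9-2, stood at 13.8, 18.3 and 17.6 CPM in clone 1, with 14.7 and 18.0 CPM in clone 2, against 20.6, 19.4 and 20.4 CPM in wild type. Every knockout library lay below every wild type library, with the clone 1 libraries spread widely, and the adjusted p was 0.0534 (log2 fold change -0.29, SE 0.10). It was called lower under 10 of 18 alternatives. Its adjusted p was 0.0306 with DESeq2, 0.0317 with the replicate number as a block and 0.00407 with no filter. With a term for blocks of sample numbers its log2 fold change was -0.50 (adjusted p = 0.000297), and with the libraries numbered 1 to 5 it was -0.51 (adjusted p = 0.000300). The other 3 were not called by edgeR or DESeq2. LINC00467, an RNA reported in neuroblastoma, averaged 7.23 ± 0.54 CPM in clone 1 (SD, n = 3) and 8.38 CPM in clone 2 (n = 2), against 8.74 ± 0.31 CPM in wild type (SD, n = 3; log2 fold change -0.17, adjusted p = 0.196). LINC00662 averaged 10.4 CPM in clone 1 and 11.1 CPM in clone 2, against 10.3 CPM in wild type (log2 fold change 0.06, SE 0.08, adjusted p = 0.631). LINC01128, the fourth, is among the members of high level above.

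The single-end pair gives 1 library of each kind, so its values have no replicate check. LINC01788 had 638 counts in the knockout library and 41 in the wild type library, a log2 ratio of 3.95 with a prior count of 2. That ratio is larger than the log2 fold change of either paired-end clone. LINC00158 had 56 counts in knockout and 9 in wild type (log2 ratio 2.44), and LINC00907 had 40 counts in knockout and 5 in wild type (2.63). Both RNAs are thus again low in wild type. LINC00494 had 29 counts in knockout and 6 in wild type (log2 ratio 2.00), and LINC00707 had 43 counts in knockout and 10 in wild type (1.95). LINC00365 had 5 counts in knockout and 81 in wild type (log2 ratio -3.52). LINC00641 had 1094 counts in knockout and 1361 in wild type (log2 ratio -0.26). Both were lower in knockout, by very different amounts. LINC01234 had 61 counts in knockout and 137 in wild type (log2 ratio -1.09), and LINC01018 had 55 counts in knockout and 37 in wild type (0.60). Of the 26 members called higher, 25 had a log2 ratio above 0 in the single-end pair, with a median of 0.59. The exception was LINC03049, named after its values were seen, with 61 counts in knockout and 67 in wild type (log2 ratio -0.08). Of the 117 members that were not called and had at least 20 counts in the pair, 79 had a log2 ratio above 0, with a median of 0.12. Over all 145 members with that many counts, 104 were above 0, with a median of 0.19. The share over all features of the pair was not worked out. LINC00494, LINC00907, LINC00649 and LINC01356, among the 26, met the 0.5 CPM rule only through their knockout level, so these counts are a description.

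**Figure D4:**
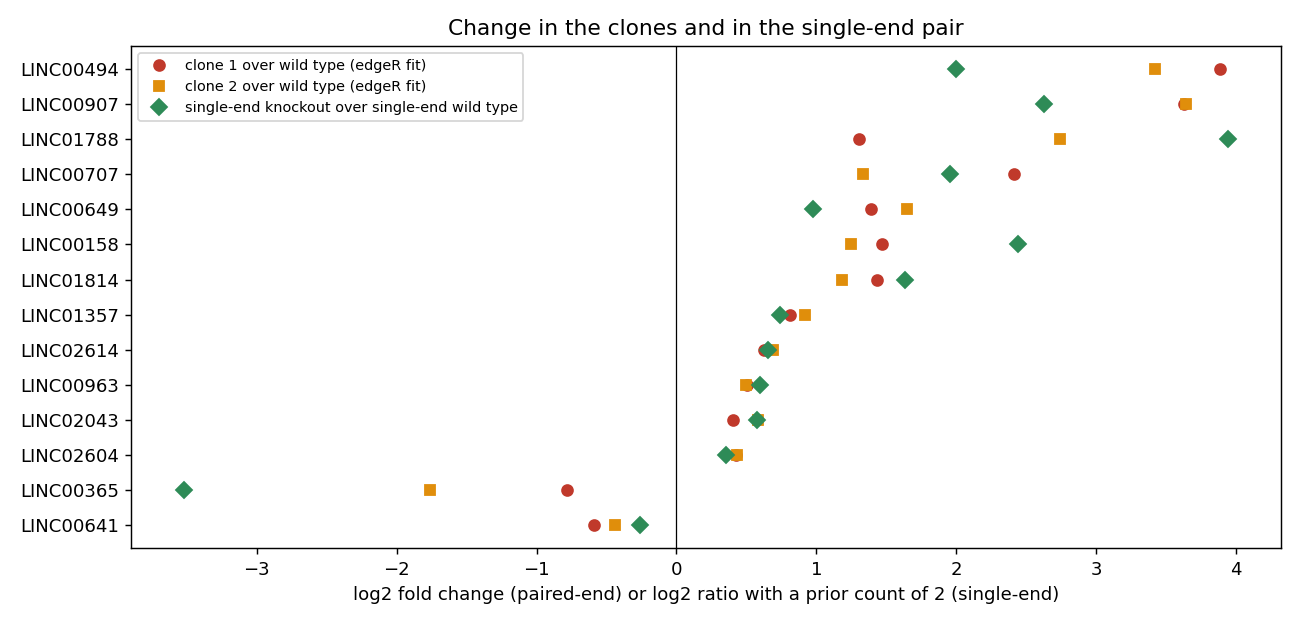
Log2 fold change of clone 1 (red circles) and clone 2 (orange squares) over wild type from the paired-end fit, and log2 ratio of the single-end knockout over the single-end wild type library (green diamonds, prior count of 2), for 14 members called in both clones. The 12 higher members lie right of 0 and the 2 lower members left of it in all 3. LINC01788 and LINC00365 lie farthest from 0 in the single-end pair, at 3.95 and -3.52.

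Members called higher had a higher GC content than the rest. The median GC content of exons was 52.1% in the 26 members called higher, 49.3% in the 118 not called and 49.1% in all genes tested. The libraries themselves differed in how level followed GC content. Spearman's correlation of relative level with GC content across genes was 0.283, -0.00916 and 0.395 in clone 1 and 0.350 and -0.0506 in clone 2, against -0.426, -0.355 and -0.251 in wild type, a value that moves with the knockout. It is a correlation across genes, which are not independent replicates. Of members with GC content of 55% or more, 10 of 33 (30.3%) were called higher, where 19.6% of all genes of that GC content were. From 45% to 55%, 12 of 80 members (15%) were called higher, where 9.35% of all such genes were. Below 45%, 4 of 33 members (12.1%) were called higher, where 3.24% of all such genes were. Both members called lower had a GC content below 45%, a range in which they made up 6.06% of the members and in which 17.8% of all genes were called lower. With an offset that removes the trend on GC content in each library, the members called higher became 6, 10 and 5 from the lowest to the highest GC range (18.2%, 12.5% and 15.2%), where 6.85%, 8.28% and 10.8% of all such genes were called higher. Both lower members stayed called. The counts of members called higher include LINC00494, LINC00907, LINC00649 and LINC01356, which met the 0.5 CPM rule only through their knockout level. These shares therefore describe the members and are not a test of them.

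**Figure D5:**
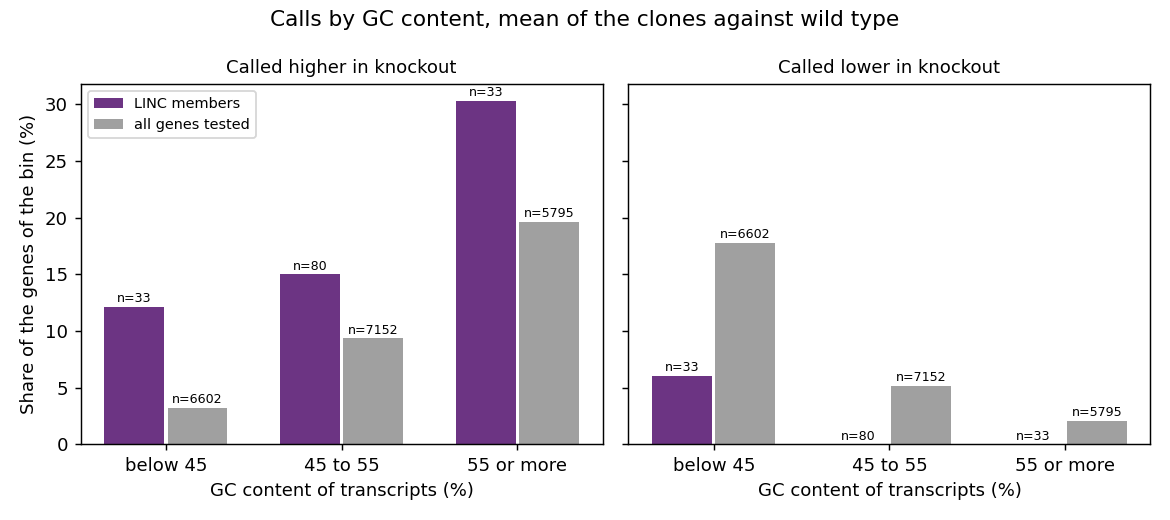
Share of genes called higher (left) and lower (right) in the mean of both clones against wild type (percent of the genes of a range), by GC content of their transcripts. Purple bars are members and grey bars all genes tested, with the number of genes above each bar. The share called higher climbs with GC content in both sets, to 30.3% of members and 19.6% of all genes at 55% or more.

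The 4 members called higher below 45% GC were LINC01788 at 39.2%, LINC00158 at 38.6%, LINC00907 at 41.7% and LINC00707 at 44.6%. LINC01788, LINC00158 and LINC00707 stayed called with the GC offset. LINC00907 met the 0.5 CPM rule only through its knockout level, so its call is not drawn on. LINC01521, LINC02593, LINC02846, LINC01836, LINC00638, LINC02487 and LINC01089, with GC content from 51.9% to 61.9%, were not called with it, at adjusted p from 0.0520 to 0.142. Their log2 fold changes were 0.12 to 0.60 with the offset and 0.20 to 0.73 without it. Other than LINC01089, these were named after their values were seen. Members called higher were also longer than members not called. Their median exonic length was 3654 bases, against 2544 bases in those not called and 3772 bases in all genes tested. Their median of the largest exon number was 5, against 3 in those not called and 7 in all genes tested. Members called higher also had a higher median level, 2.24 CPM against 1.31 CPM in those not called. The part of level in these differences was not tested.

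Promoter motifs were counted in the 99 members with a RefSeq promoter. TATAAA was present in 4 of 15 promoters of members called higher (26.7%) and in 11% of those of members not called, against 11.5% of all 35116 promoters. TGANTCA was present in 3 of 15 (20%) and in 6.1%, against 7.71% of all promoters. CCAAT was present in 46.7% and 45.1%, against 34.6% of all, and GGGCGG in 60% and 56.1%, against 45% of all. The median number of CpG in the window was 15 in members called higher, 20 in members not called and 14 in all promoters. With 15 promoters a single one is a large share, and a match is a description of the letters in these windows. The 15 include those of LINC00494 and LINC01356, which met the 0.5 CPM rule only through their knockout level.

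The gene with the nearest protein-coding start was tested for 24 of the 26 members called higher, and 5 of these neighbour entries were themselves called higher and 2 lower. Of the 93 tested neighbours of members not called, 9 were called higher and 6 lower. Over all features, 9.87% were called higher and 8.09% lower. LINC00494, LINC00907, LINC00649 and LINC01356, which met the 0.5 CPM rule only through their knockout level, are among the 26. Of their neighbours, PREX1 was called higher, SLC16A1 lower, and PIK3C3 and ATP5PO were not called. These counts therefore describe the neighbours and are not a test of them. The neighbours called higher were PREX1, SAMD11, ZBTB42, ID2 and CTH. PREX1, an activator of the GTPase Rac, starts 467933 bases from LINC00494 and averaged 18.7 CPM in clone 1 and 19.6 CPM in clone 2, against 11.4 CPM in wild type (log2 fold change 0.75, adjusted p = 3.63e-06). SAMD11 starts 2912 bases from LINC02593 in divergent orientation and averaged 21.5 CPM in clone 1 and 24.1 CPM in clone 2, against 12.3 CPM in wild type (log2 fold change 0.89). LINC02593 itself rose less (log2 fold change 0.33, SE 0.08, adjusted p = 0.0149), and its call was lost without wild type replicate 1, wild type replicate 2 or clone 2 replicate 2 (adjusted p from 0.0671 to 0.0762). CTH, which makes cysteine from cystathionine, starts 295235 bases from LINC01788 and rose by 0.21 on the log2 scale (adjusted p = 0.0233), far less than LINC01788. Both entries called lower are SLC16A1, counted for LINC01356 and for LINC01357.

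Exon overlap limits how far members can be read apart from other genes. Of the 146 members, 42 share exonic bases with a gene on the opposite strand, 24 with a gene on the same strand and 91 with none. Of the 146, 77 share no 75-base window of transcript with another gene, 31 share 10% or more of their windows and 8 share 50% or more. LINC00494, LINC01788, LINC00158, LINC00365, LINC00641, LINC01018 and LINC01234 share no such window. LINC00707 shares 14.0% of its windows, most of them with a neighbouring lincRNA gene that overlaps it.

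Of 39 long noncoding RNAs with names other than LINC numbers, 32 were tested, and 4 were called higher and 3 lower (median log2 fold change -0.08), where 9.87% and 8.09% of all features were. Higher were MALAT1, an abundant nuclear RNA (log2 fold change 0.51), MIR22HG and SNHG8, hosts of small RNAs, and CYTOR. Lower were MIR17HG, the host of the miR-17-92 cluster (log2 fold change -0.38), EPB41L4A-AS1 and SNHG6. CYTOR averaged 0.549 CPM in clone 1 and 2.18 CPM in clone 2, against 0.153 CPM in wild type (log2 fold change 2.77). Of 28 genes of nuclear RNA decay, the machinery that degrades many long noncoding RNAs, 4 were called, all of them lower (median log2 fold change -0.10), where 8.09% of all features were called lower. They were MTREX, the helicase that feeds RNA to the exosome (138 CPM in clone 1 and 139 CPM in clone 2, against 157 CPM in wild type; log2 fold change -0.18), the nuclease DIS3 (-0.24), EXOSC9 (-0.19) and EXOSC4 (-0.26). The part of these genes in the levels of the members was not tested.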

How the data were processed

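RNA was counted in 10 libraries: RBM4 knockout clone 1 (3), RBM4 knockout clone 2 (2) and wild type (3), paired-end, and 1 knockout and 1 wild type library, single-end. The labels' protocols name a stranded mRNA kit and 65 ng of RNA per library. The authors' deposited tables hold whole-number read counts per gene and repeat subfamily, with no normalization. The submitters' processing notes name STAR 2.5.2a and hg38 (GRCh38), and the file names TEToolkit as the counter. How it treated strand and multiply aligned reads, and its annotation, are not given in the sources.

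A gene name table gave the symbols (56948 of 58051 gene rows matched), and coordinates, classes and GC content from GENCODE 29 (57447 rows matched) on GRCh38. Promoters came from RefSeq (GRCh38.p14). Features were filtered with filterByExpr (20747 kept, all 146 members among them), scaled with TMM factors and tested with edgeR 4.0.16 (R 4.3.3; limma 3.58.1) by the quasi-likelihood F test, with a mean for each paired-end group. P-values were Benjamini-Hochberg adjusted over all features, and called below 0.05. Levels are CPM of TMM-scaled library sizes, except in the 0.5 CPM rule. The SE is the size of the log2 fold change over the square root of F. Exact intervals of count ratios cover counting error only. The single-end pair was used as values, with a prior count of 2 and for members with at least 20 counts in the pair.

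Members and lists were chosen with earlier results of these data known. Named were members called in the mean and the same way in both clones with libraries that did not overlap (up to 12 a direction), members called between the clones (up to 6 a direction), the 8 of highest mean CPM, the 3 on each side of the 0.5 CPM rule, those of a list of 18 with a known role, and the nearest protein-coding neighbours. Alternatives were DESeq2 1.42.0, RLE factors, TMM factors from genes only, no filter, a GC offset, the replicate number as a block, a term for blocks of sample numbers, the knockout libraries as 1 group, a 1 CPM rule, and each library left out. The code was first tested on simulated data. Replicates were not copies: their counts differed with a chi-square of 4.54 to 22.1 for each degree of freedom.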

Additional observations from a re-analysis of the deposited data

Results flagged for a closer look

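The levels of 5 members differed between the clones, by the test of clone 2 against clone 1 adjusted over all features. This test compares single clones and does not measure an effect of the knockout. LINC01018 (log2 difference 1.568), LINC01788 (1.435) and LINC01694 (0.8422) were higher in clone 2. LINC01234 (-1.14) and LINC00707 (-1.08) were lower in clone 2. The groups of 3 and 2 libraries were too small for a check of single libraries that stand apart. PDGFRA, which is not a member, also differed between the clones (39.2 CPM in clone 2 and 1.59 CPM in clone 1), and its part in these differences was not tested.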

How the results depend on the processing

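No member called in the mean of the clones changed direction under any alternative: of 504 pairs of a called member and an alternative, 405 stayed called and 99 lost the call. LINC00158, LINC00174, LINC00365, LINC00641, LINC00707, LINC00963, LINC01357, LINC01788, LINC01814 and LINC02604, among members at 0.5 CPM or more in wild type, stayed called under all of them, and LINC02487 lost its call under 17 of 18. The number called in the mean (28) ran from 16 to 30 with 1 library left out, with 16 without wild type replicate 1 and 17 without wild type replicate 2. For clone 1 (24 called) it ran from 13 to 23, with 13 and 14 without those 2 libraries. For clone 2 (16 called) it ran from 10 to 19, with 10 without clone 2 replicate 1, and between the clones (5 called) from 4 to 5. Over all features, the number called in the mean fell too, from 3725 to 1847 and 2217 without wild type replicate 1 and 2. The column names carry sample numbers, and numbers 11 to 13 hold knockout libraries only. With the libraries numbered 1 to 5 (chosen after seeing the data), which leave 1 library of each clone, LINC01018 and LINC01234 were not called between the clones. In the mean these libraries gave more lower calls, both in the members and over all features. A term for blocks of sample numbers gave 17 higher and 6 lower, DESeq2 18 and 3, the GC offset 21 and 2, and genes by their GENCODE names (chosen after seeing the data) 23 and 2. Over all features, the block term gave 1995 higher and 2091 lower, DESeq2 1673 and 1602, and the GC offset 1696 and 1324. The main fit gave 2047 and 1678. LINC01694 was not called with the knockout libraries as 1 group (adjusted p = 0.167). Libraries were also correlated by their deviations from group means, which sum to 0 within a group. Same-numbered wild type and knockout libraries had correlations of -0.233 to 0.054, and differently numbered ones -0.139 to 0.179. Same-numbered clone 1 and clone 2 libraries had correlations of 0.253 and 0.197, and differently numbered ones -0.253 to 0.098. The deviations of the 2 clone 2 libraries are mirror images, so each of their correlations has a forced opposite of the same size. These values therefore cannot decide whether libraries are paired by number, and the main fit used no pairing. With the replicate number as a block, LINC00707 was not called between the clones (adjusted p = 0.0643). With the replicate number as a block, 25 members were called higher and 4 lower in the mean. The log2 fold changes near 0 of LINC02693 turned sign without a filter (0.0005427) and ran from -0.03953 to 0.01266 with 1 library left out, and those of LINC01224 were 0.001363 without a filter and ran from -0.05266 to 0.01238 with 1 library left out. Depth limits the members under 1 CPM, where the wild type coefficient of variation had a median of 21.3%.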
